A study of Mus musculus with 6 samples.

Results

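The genes described here are 10 that mark megakaryocytes, the bone marrow and spleen cells that make platelets, and platelets themselves. They were chosen by name: the integrin subunits Itga2b and Itgb3, the glycoprotein receptors Gp1ba, Gp9 and Gp6, the granule proteins Pf4, Ppbp and Vwf, the thrombin receptor F2rl2 and the tetraspanin Cd9. Of the 10, 8 had an entry of their own in the array table, among 14860 genes measured in all. Gp1ba and Gp6 had no entry with their symbol alone and were not analysed here, as entries with several symbols were not used. Each level is the deposited log2 signal, on which a difference of 1 is a doubling.

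Spleen cells that bound magnetic beads against Sca-1, a surface protein of primitive blood cells, were the source of RNA, and each of 6 mice gave 1 Affymetrix exon array. For 33 days, 3 of the mice had been given ABT-737 at 75 mg/kg in 3 doses a week. ABT-737 is a drug that mimics BH3 proteins and so inhibits BCL-2 together with its relatives BCL-XL and BCL-W. The series description calls the other 3, the controls, untreated, and whether vehicle was given to them is not stated in the sources used here. All 6 carried both transgenes, NRASD12 and BCL-2, on FVB/N, and model acute myeloid leukaemia (AML), so the controls shared the leukaemia genotype. Neither the promoters that drive the transgenes nor the ages of the mice are stated there.

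A resting platelet carries the receptor complex of Gp1ba, Gp1bb, Gp5 and Gp9, which catches von Willebrand factor (Vwf) on a damaged vessel wall, and Gp6, which binds collagen. Both set off signals that open the integrin of Itga2b and Itgb3, so that it binds fibrinogen and links platelets to each other. Activated platelets release Pf4 and Ppbp, chemokines of the CXC family, from their alpha granules. Platelets live only as long as BCL-XL holds BAK in check, and drugs that block BCL-XL lower the platelet count of mice and people.

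Arrays of all mice correlated with one another over the genes at 0.977 to 0.992, and array medians ran from 7.20 to 7.44. In control mouse 3 the Y-linked genes Kdm5d and Eif2s3y stood at only 4.77 and 4.23, while the other 5 mice had 8.05 or more. No treated mouse had such low values, so the groups were not balanced in Y-linked signal, and no fit allowed for sex. Ly6a, which encodes Sca-1, was not analysed here. The progenitor markers Kit and Cd34 had signals of 8.08 to 8.46 and 8.89 to 9.63 in treated mice, against 7.83 to 8.46 and 9.47 to 10.25 in controls. The B cell genes Cd79a and Cd79b reached 12.69 or more in all mice.

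The promoters of F2rl2 and Cd9, which had the largest differences among the members, and of Pf4 and Ppbp, neighbouring chemokine genes whose values differed from each other, carry the sequences given here. Megakaryocyte genes are known to be driven by GATA1 with ETS factors such as FLI1. The windows, from RefSeq on build GRCm38.p6, run 5' to 3' on the gene's strand from 250 bases before to 50 bases after the start of the gene. Capitals mark the letters AGATAA, which GATA factors bind. They also mark AGGAAG, which ETS factors bind. Finally they mark TATAAA, the core of the TATA box, and all were searched on both strands. The windows are chr13:95696670-95696969 (plus strand), chr6:125494711-125495010 (minus strand), chr5:90772185-90772484 (plus strand) and chr5:90768268-90768567 (plus strand).
F2rl2: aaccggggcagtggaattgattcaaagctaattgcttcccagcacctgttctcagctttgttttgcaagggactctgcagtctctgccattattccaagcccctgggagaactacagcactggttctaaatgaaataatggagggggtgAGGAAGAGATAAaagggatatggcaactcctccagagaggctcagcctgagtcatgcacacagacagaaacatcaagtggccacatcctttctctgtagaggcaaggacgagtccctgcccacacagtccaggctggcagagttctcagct
Cd9: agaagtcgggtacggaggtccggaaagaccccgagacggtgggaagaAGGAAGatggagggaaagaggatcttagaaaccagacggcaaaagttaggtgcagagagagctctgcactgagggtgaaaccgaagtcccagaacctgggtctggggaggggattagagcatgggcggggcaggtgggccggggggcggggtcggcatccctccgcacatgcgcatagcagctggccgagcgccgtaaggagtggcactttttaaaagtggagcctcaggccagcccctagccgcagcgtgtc
Pf4: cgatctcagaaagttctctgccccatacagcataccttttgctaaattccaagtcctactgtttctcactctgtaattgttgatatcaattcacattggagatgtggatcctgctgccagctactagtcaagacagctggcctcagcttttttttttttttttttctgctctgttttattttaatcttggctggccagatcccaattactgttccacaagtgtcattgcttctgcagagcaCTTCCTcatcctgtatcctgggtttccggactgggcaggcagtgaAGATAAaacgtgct
Ppbp: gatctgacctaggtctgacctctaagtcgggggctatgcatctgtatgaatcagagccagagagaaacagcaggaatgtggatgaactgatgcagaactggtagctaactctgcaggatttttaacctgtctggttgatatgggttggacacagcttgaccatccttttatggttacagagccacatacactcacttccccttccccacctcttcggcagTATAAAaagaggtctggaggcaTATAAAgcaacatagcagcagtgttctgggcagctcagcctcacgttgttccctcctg

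RefSeq windows were matched for 8 of the 10 members, all but Itgb3 and Vwf. The GATA letters stood in 3 of the 8, F2rl2, Pf4 and Gp6, against 11.2% of all 32851 windows. The ETS letters stood in 6, against 35.4%, and were missing from those of Ppbp and Gp6. In F2rl2 the ETS letters ended where the GATA letters began, a joined run, AGGAAGAGATAA, that was singled out after it was seen and stood in 6 of all windows. The TATA letters stood only in that of Ppbp among the 8, at 2 places, against 13.6% of all windows. No marked letters of different motifs overlapped. Only these exact letters were searched, and other forms that GATA and ETS factors may bind were not counted. These matches are a description of letters and not of bound sites.

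Among the 8 measured members, F2rl2 and Cd9 had higher signals in the mice given ABT-737, by 3.12-fold and 2.38-fold, and in both genes every treated mouse lay above every control. Vwf also did not overlap between the groups, but by a margin that was lost under quantile normalization and when arrays were centred. The chemokines Pf4 and Ppbp, the receptor subunit Gp9 and the integrin subunit Itga2b had higher means in treated mice with groups that overlapped, and Itgb3 had a lower mean. No member passed an adjusted p of 0.05 by limma (Benjamini-Hochberg over all 14860 genes), and neither did any other gene (0.00%). These are levels in a mixed cell population, in which more cells of a type and more RNA per cell cannot be told apart.

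F2rl2 encodes PAR3, a receptor on mouse platelets that holds thrombin and helps it to cleave PAR4. Its signal was 8.45, 9.67 and 9.54 in treated mice 1, 2 and 3, against 8.14, 7.18 and 7.41 in control mice 1, 2 and 3. Treated mice 2 and 3 stood well apart, whereas treated mouse 1 was only 0.31 above control mouse 1, the highest control. The means were 9.22 ± 0.67 in treated mice and 7.58 ± 0.50 in controls (SD, n = 3 each). The difference was 1.64 (SE 0.37, 95% interval 0.77 to 2.52), with an unadjusted p of 0.00288 and an adjusted p of 0.292 by limma. F2rl2 was number 145 of all genes by p. In the RefSeq annotation the gene lies within the bounds of Iqgap2, which runs on the opposite strand and was not analysed here, and the part of Iqgap2 transcripts in this signal was not tested. The difference of F2rl2 was 1.56 without control mouse 3, and it passed without treated mouse 1, at 2.03 with an adjusted p of 0.00969 by limma. In that setting 510 of all genes passed. With any other single mouse left out, the adjusted p of F2rl2 was 0.392 to 0.674 by limma.

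The other thrombin receptor genes, set beside F2rl2 after its value was seen, differed little. F2r, which encodes PAR1 and lies near F2rl2 on chromosome 13, had 9.05, 9.64 and 8.96 in treated mice, against 9.66, 9.14 and 9.10 in controls. Its difference was -0.08 (SE 0.23). F2rl3, which encodes PAR4, the receptor that signals in mouse platelets, had 5.93 to 6.25 in treated mice, against 5.64 to 6.17 in controls. For both genes the groups overlapped, and the difference of F2rl3 was 0.11 (SE 0.17). Whether these differences are unlike that of F2rl2 was not tested.

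Cd9 encodes a tetraspanin, a membrane protein that gathers integrins into clusters, and it is abundant on platelets but also present on other blood cells. Its signal was 9.96, 11.05 and 10.90 in treated mice, against 9.45, 9.32 and 9.39 in controls. The controls lay within 0.13 of one another, and the treated mice spread over 1.09, with treated mouse 1 nearest to the controls. The means were 10.64 ± 0.59 in treated mice and 9.39 ± 0.07 in controls (SD, n = 3 each). The difference was 1.25 (SE 0.27, 95% interval 0.61 to 1.89), with an unadjusted p of 0.00236 and an adjusted p of 0.281 by limma. It was number 121 of all genes by p. The difference was 1.25 without control mouse 3, and it passed without treated mouse 1, at 1.59 with an adjusted p of 0.00337 by limma. In that setting 510 of all genes passed. With any other single mouse left out, the adjusted p of Cd9 was 0.383 to 0.674 by limma.

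Other tetraspanin genes of blood cells, also set beside Cd9 after its value was seen, had differences between -0.17 for Cd37 and 0.15 for Cd151. Cd81, a close relative of Cd9, stood at 12.14, 12.30 and 12.47 in treated mice, against 12.43, 12.26 and 12.60 in controls. Cd82, Cd53 and Tspan32 differed by 0.09, 0.07 and 0.11, and in all 6 of these genes the groups overlapped.

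**Figure D1:**
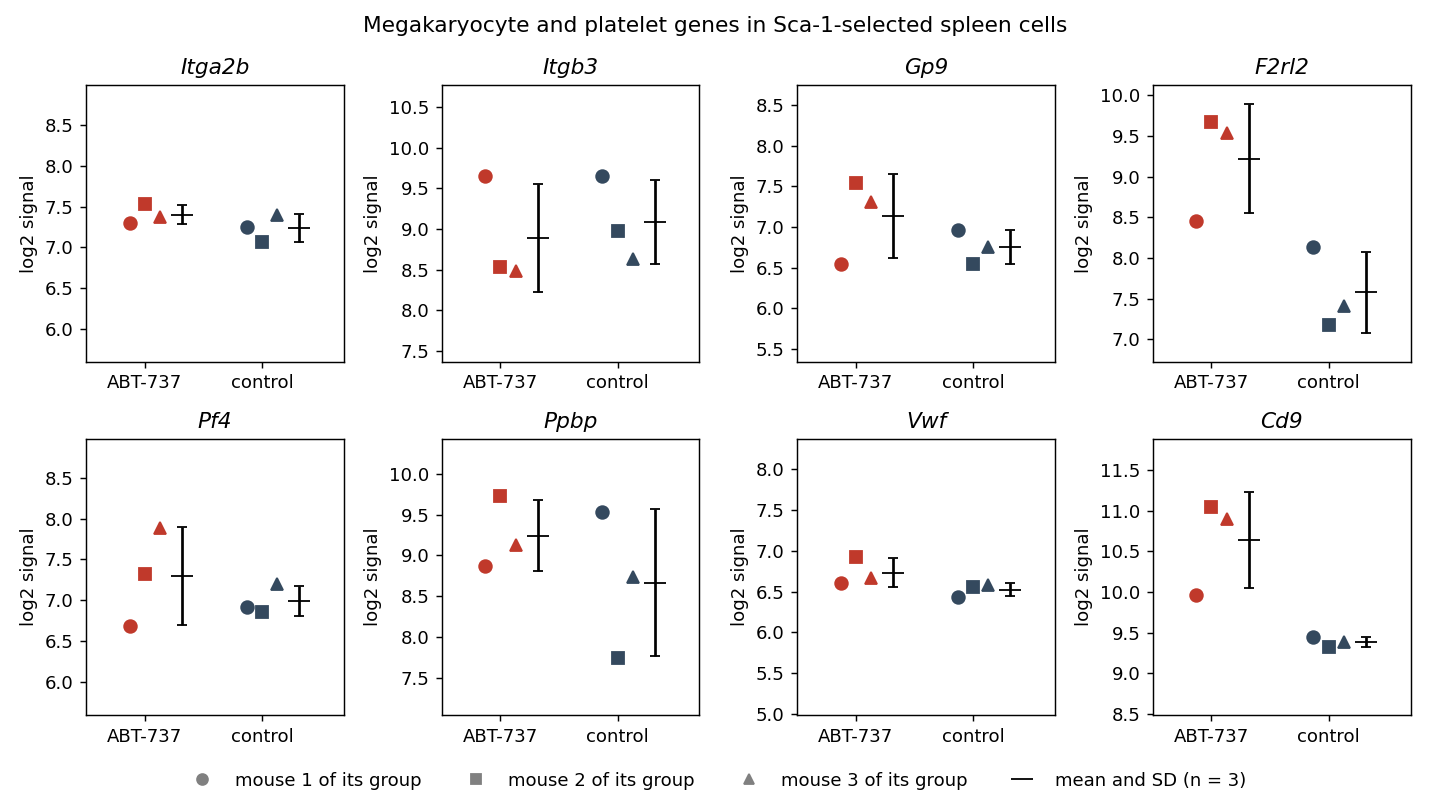
Log2 signal (y axis, the same span in each panel) of the 8 measured members in 3 mice given ABT-737 (red, left) and 3 control mice (dark, right), with the mean and SD of each group. In F2rl2 and Cd9 all treated mice lie above all controls, treated mouse 1 (circle) being nearest, and in Ppbp the controls spread from 7.74 to 9.53.

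The granule chemokines did not separate the groups. Pf4, platelet factor 4, had a signal of 6.68, 7.32 and 7.89 in treated mice, against 6.91, 6.86 and 7.20 in controls. Treated mice 2 and 3 lay above every control, and treated mouse 1 lay below every control. The difference was 0.31 (SE 0.29, 95% interval -0.37 to 0.98), with an adjusted p of 0.782 by limma. Leaving out treated mouse 3 gave 0.01, and leaving out treated mouse 1 gave 0.61.

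Ppbp, the precursor of the neutrophil-attracting chemokine CXCL7, had a signal of 8.87, 9.73 and 9.13 in treated mice, against 9.53, 7.74 and 8.73 in controls. Control mouse 1 lay above treated mice 1 and 3, and control mouse 2 was the lowest of all. The SD over the controls, 0.90, was exceeded by that of only 0.202% of all genes. The difference was 0.58 (SE 0.44, 95% interval -0.46 to 1.61), with an adjusted p of 0.738 by limma. Leaving out control mouse 2 gave 0.11. Leaving out control mouse 1 gave 1.01, with groups that no longer overlapped. Pf4 and Ppbp are next to each other on chromosome 5, and in both genes treated mouse 1 and control mouse 2 were the lowest of their groups. The highest mice differed, as treated mouse 3 and control mouse 3 were highest for Pf4, and treated mouse 2 and control mouse 1 for Ppbp.

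Vwf, the adhesive protein that megakaryocytes and endothelial cells store, had a signal of 6.60, 6.93 and 6.67 in treated mice, against 6.43, 6.56 and 6.58 in controls. Treated mouse 1 was only 0.02 above the highest control, and with arrays scaled in either of those ways the groups overlapped. The means were 6.73 ± 0.17 in treated mice and 6.52 ± 0.08 in controls (SD, n = 3 each). The difference was 0.21 (SE 0.13, 95% interval -0.09 to 0.51), with an adjusted p of 0.647 by limma. Leaving out treated mouse 2 gave 0.11. Endothelial markers, which could share the source of Vwf, had 3 of 10 means higher in treated mice, against 44.7% of all genes. At an unadjusted p under 0.05 by limma 0 were higher and 0 lower, against 5.75% and 4.45% of all genes. Without the dimmest 30% of genes 6 of these markers remained, 3 of them higher. The mean over the whole endothelial list, relative to the controls, was -0.11, -0.08 and -0.02 in treated mice 1, 2 and 3, against 0.07, -0.06 and -0.01 in the controls. The junction protein Cdh5 and the adhesion molecule Pecam1 of that list differed by 0.17 and -0.03. Vwf and Cd9 are neighbours on chromosome 6.

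Gp9, a subunit of the von Willebrand factor receptor, had a signal of 6.55, 7.54 and 7.31 in treated mice, against 6.96, 6.55 and 6.76 in controls. Treated mouse 1 equalled the lowest control, whereas treated mice 2 and 3 lay above all of them. The difference was 0.38 (SE 0.26, 95% interval -0.23 to 0.98), with an adjusted p of 0.701 by limma. Leaving out treated mouse 2 gave 0.17, and leaving out treated mouse 1 gave 0.67. Gp5, another subunit of the same receptor, differed by 0.08 (SE 0.19), at 5.85, 5.57 and 5.63 in treated mice, against 5.75, 5.87 and 5.20 in controls. Its signal was among the dimmest 30% of genes, which limits what this small difference can show.

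The subunits of the fibrinogen receptor went different ways. Itga2b, which is largely confined to the megakaryocyte lineage and early progenitors, had 7.30, 7.53 and 7.37 in treated mice, against 7.25, 7.06 and 7.40 in controls. Only treated mouse 2 lay above all controls, and the difference was 0.16 (SE 0.13, 95% interval -0.15 to 0.47, adjusted p = 0.750 by limma). Without control mouse 3 it was 0.245, and the groups no longer overlapped. Leaving out control mouse 2 lowered it to 0.075, and leaving out treated mouse 2 to 0.10. Itgb3, which also pairs with the alpha subunit Itgav in other cells, had 9.65, 8.53 and 8.49 in treated mice, against 9.65, 8.98 and 8.63 in controls. Treated mouse 1 and control mouse 1 had the same, highest value, and treated mice 2 and 3 lay below all controls. The difference was -0.20 (SE 0.37, 95% interval -1.07 to 0.68, adjusted p = 0.906 by limma). Leaving out treated mouse 1 gave -0.58 and leaving out control mouse 3 gave -0.43, whereas leaving out control mouse 1 gave 0.08 and leaving out treated mouse 2 gave -0.02. Itgav, chosen afterwards as that partner, differed by 0.16 (SE 0.26) with overlapping groups.

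**Figure D2:**
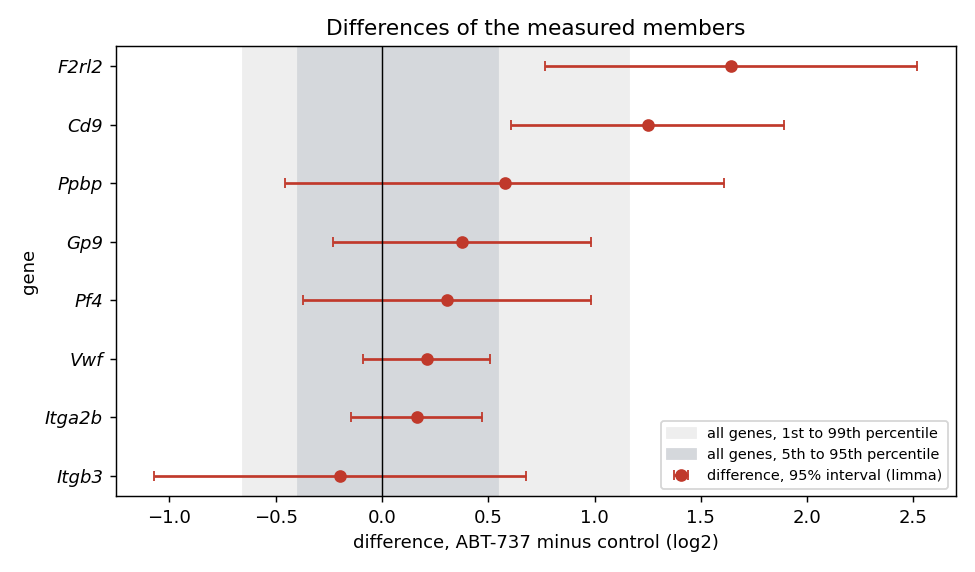
Difference in log2 signal, treated minus control (x axis), of the 8 measured members (y axis) with its 95% interval from limma. Grey bands span the 5th to 95th percentile, -0.40 to 0.55, and the 1st to 99th, -0.65 to 1.16, of all genes. F2rl2 at 1.64 and Cd9 at 1.25 lie beyond the bands, and the intervals of the other 6 include 0.

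Counted over the 8 members, 7 had a higher mean in treated mice and 1 a lower one, with a median difference of 0.34, where the median over all genes was -0.02 and 44.7% of genes had a higher mean. An unadjusted p under 0.05 by limma with a higher mean was found for 2 members, against 5.75% of all genes, and for 0 members with a lower mean, against 4.45%. Groups did not overlap, with the treated mice higher, in 3 members, against 6.14% of genes, and with the treated mice lower in 0, against 7.19%. The members were chosen with such results known, so these counts describe them and carry no test. Without treated mouse 1 the first count was 4, with Gp9 and Pf4 added, the second was 5, and the median was 0.64. In that setting 10.3% and 16.2% of all genes met the same conditions, and Itgb3 became a member with separate, lower groups.

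Single mice contributed unequally. Treated mouse 1 lay above every control in 3 of the 8 members, F2rl2, Cd9 and Vwf, against 17.0% of all genes, and below every control in 1, Pf4, against 37.6%. Treated mouse 2 did so in 7, all but Itgb3, against 27.8% of genes, and lay below every control for Itgb3, against 31.3%. Treated mouse 3 lay above in 5, against 33.4%, and below for Itgb3 alone, against 24.8%. The mean over the 8 members, relative to the controls, was 0.23, 0.76 and 0.63 in treated mice 1, 2 and 3, against 0.26, -0.25 and -0.02 in control mice 1, 2 and 3. Treated mouse 1 thus lay below control mouse 1.

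**Figure D3:**
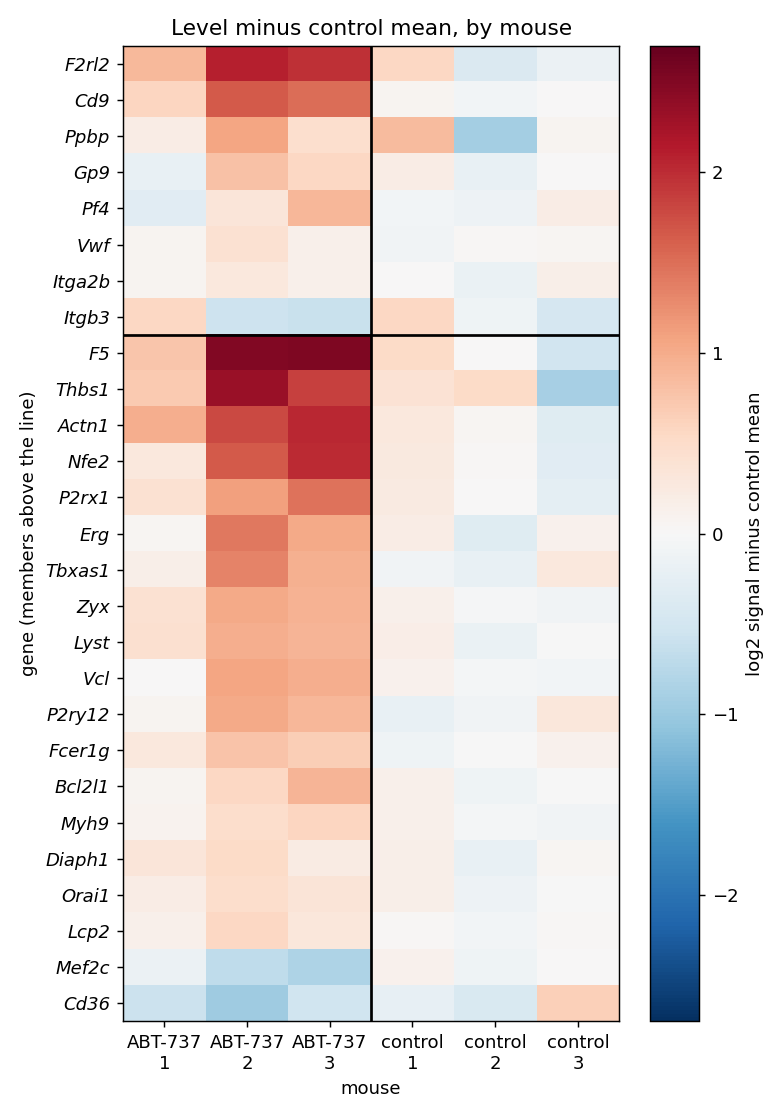
Log2 signal minus the control mean (colour) of the 8 members (above the line) and of the 19 other pathway genes with an unadjusted p under 0.05 by limma (below it), in each mouse (x axis). Treated mice 2 and 3 carry the darkest colours, and treated mouse 1 is paler than both for F2rl2, Cd9, F5 and Nfe2; the lower 19 genes were drawn because of their p.

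Other genes of the megakaryocyte and platelet programme were listed by role, with earlier results of these data known, so their counts carry no test. Of 93 listed, 78 were measured. Of these, 57 had higher means in treated mice, against 44.7% of all genes, with a median difference of 0.12. At an unadjusted p under 0.05 by limma, 17 were higher and 2 lower, which is 24.4% of them against 10.2% of all genes, and 59 did not reach that level. None passed the adjusted threshold. The 19 were 31 without treated mouse 1, 9 without treated mouse 2 or treated mouse 3, 12 without control mouse 2 or control mouse 3, and 13 without control mouse 1. The share over all genes moved too. Without treated mice 1, 2 and 3 in turn, 29, 8 and 8 were higher, against 10.3%, 4.18% and 3.84% of all genes. Without control mice 1, 2 and 3 in turn, 12, 8 and 11 were higher, against 5.14%, 3.07% and 4.48%. With all mice, the 17 higher stood against 5.75%.

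Of 12 measured cytoskeletal genes that shape platelets, 11 had higher means, 5 of them at an unadjusted p under 0.05 by limma, and the median was 0.33. Over all genes, 44.7% had higher means and 5.75% were higher at that level. The 5 were 2 without treated mouse 2, control mouse 2 or control mouse 3, and 3 without treated mouse 3. Actn1, an actin cross-linker whose human mutations lower platelet counts, had 10.44, 11.25 and 11.50 in treated mice, against 9.74, 9.51 and 9.13 in controls. Its difference was 1.60 (SE 0.29, adjusted p = 0.241 by limma), and the groups did not overlap. Zyx, a focal adhesion protein, differed by 0.79 (SE 0.18), and Vcl, which ties integrins to actin, by 0.69 (SE 0.28). Myh9, the non-muscle myosin of platelets and leukocytes, and Diaph1, an actin nucleator, differed by 0.39 and 0.36. In Vcl and Myh9 treated mouse 1 lay within the controls.

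Of 16 measured genes of granule cargo and packaging, 9 had higher means, against 44.7% of all genes, and 7 had lower means. At an unadjusted p under 0.05 by limma 3 were higher, against 5.75% of all genes. Without treated mouse 1 there were 6, against 10.3%. The median of the list, 0.01, turned to -0.02 under quantile normalization and when arrays were centred. F5, coagulation factor V, which platelets carry in alpha granules, had 7.91, 9.66 and 9.69 in treated mice, against 7.68, 7.17 and 6.66 in controls, a difference of 1.92 (SE 0.50, adjusted p = 0.330 by limma). Thbs1, the adhesive protein thrombospondin of platelets and monocytes, had 10.48, 12.12 and 11.63 in treated mice, against 10.17, 10.30 and 8.88 in controls, a difference of 1.63 (SE 0.50). In both genes the groups did not overlap, although treated mouse 1 was close to the controls. Lyst, which is needed for dense granules and for granules of leukocytes, differed by 0.78 (SE 0.18).

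Of 17 measured surface receptors, 11 had higher means, against 44.7% of all genes, and 6 had lower means. At an unadjusted p under 0.05 by limma, 3 were higher and 1 lower, against 5.75% and 4.45% of all genes. Without treated mouse 1, 5 were higher, against 10.3%. With all mice, 13 did not reach that level. Of these, named after their values were seen, Clec1b and Treml1 differed by -0.18 (SE 0.11) and -0.12 (SE 0.18). For Clec1b, at dim signals of 4.13 to 4.46, every treated mouse lay below every control, as for 7.19% of all genes. P2rx1, an ATP-gated channel of platelets and neutrophils, had 6.95, 7.66 and 8.01 in treated mice, against 6.79, 6.55 and 6.29 in controls, with means of 7.54 in treated mice and 6.54 in controls (SE of the difference 0.27, adjusted p = 0.337 by limma). P2ry12, the ADP receptor that clopidogrel blocks, had 7.89, 8.86 and 8.73 in treated mice, against 7.62, 7.73 and 8.13 in controls, a difference of 0.67 (SE 0.27). For P2ry12 the groups overlapped, as control mouse 3 lay above treated mouse 1. Fcer1g, the signalling partner of Gp6 that phagocytes and mast cells also use, differed by 0.57 (SE 0.16). Cd36, a scavenger receptor of platelets and macrophages, was the lower one, at 9.29, 8.90 and 9.32 in treated mice, against 9.64, 9.46 and 10.50 in controls.

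Signalling genes had 15 of 18 means higher, against 44.7% of all genes. At an unadjusted p under 0.05 by limma 3 were higher, against 5.75% of all genes, or 10.3% without treated mouse 1. Leaving out treated mouse 1 gave 6, leaving out control mouse 1 gave 1, and leaving out treated mouse 2, treated mouse 3 or control mouse 2 gave 0. Tbxas1, which makes thromboxane in platelets and macrophages, differed by 0.81 (SE 0.30), the calcium channel Orai1 by 0.35 (SE 0.13) and the adaptor Lcp2 by 0.34 (SE 0.14). Among 13 transcription factors 2 were higher and 1 lower at that level, against 5.75% and 4.45% of all genes. Without treated mouse 1, 5 were higher, against 10.3%, and without any other single mouse 1 was. Nfe2, needed for platelet release, had 8.85, 10.22 and 10.58 in treated mice, against 8.83, 8.61 and 8.27 in controls. Its difference was 1.31 (SE 0.42, adjusted p = 0.394 by limma), and treated mouse 1 was only 0.02 above control mouse 1. Erg, an ETS factor of stem cells and megakaryocytes, differed by 0.84 (SE 0.34), and Mef2c, a factor of megakaryocytes and B cells, by -0.56 (SE 0.19). Bcl2l1, which encodes BCL-XL, had 7.45, 7.93 and 8.28 in treated mice, against 7.51, 7.25 and 7.35 in controls, and its counterpart Bak1 differed by -0.03 (SE 0.24).

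**Figure D4:**
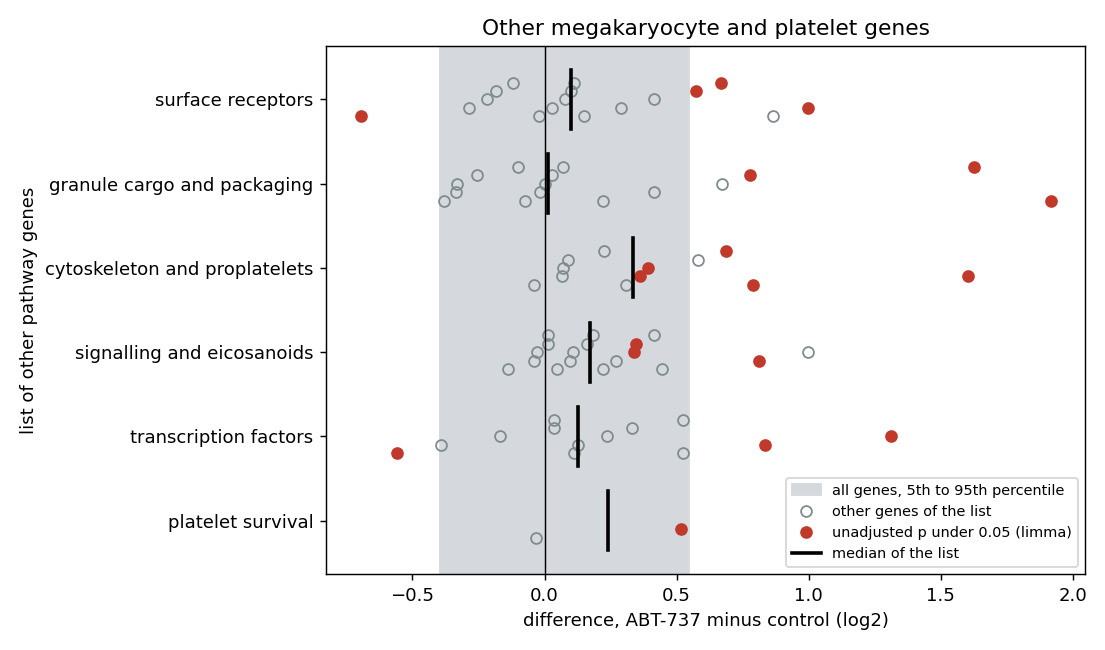
Difference in log2 signal, treated minus control (x axis), of 78 other megakaryocyte and platelet genes by role (y axis), with the list median as a bar; red points have an unadjusted p under 0.05 by limma. Of the red points 17 lie to the right and 2, Cd36 and Mef2c, to the left, and the grey band spans the 5th to 95th percentile of all genes.

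Markers of other cells differed between the same mice. The granulocyte list had 10 of 12 means higher, against 44.7% of all genes, with a median of 1.28. At an unadjusted p under 0.05 by limma 9 were higher, against 5.75% of all genes. The 9 were 5 without treated mouse 2, treated mouse 3 or control mouse 3, against 4.18%, 3.84% and 4.48% of all genes. Its mean relative to the controls was 0.68, 1.49 and 1.64 in treated mice 1, 2 and 3, against 0.28, 0.17 and -0.45 in the controls. Treated mouse 1 was thus the lowest treated mouse by the list mean, as it was for every measured member but Itgb3. It was also the lowest by the mean over all genes, at -0.07, against 0.06 and 0.04 in treated mice 2 and 3. By the B cell and T cell list means it was the highest treated mouse. Cxcr2 and Mmp9, genes of mature neutrophils, differed by 2.93 and 2.91. The 2 genes with lower means, Elane and Mpo, named after their values were seen, differed by -0.32 and -0.51. Ngp differed by 0.32.

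The erythroid list had 8 of 8 means higher, against 44.7% of all genes. At an unadjusted p under 0.05 by limma 0 were higher and 0 lower, against 5.75% and 4.45% of all genes. Without treated mouse 1, 7 were higher, against 10.3%. The mean of the erythroid list was -0.68, 1.25 and 1.85 in treated mice, against 0.23, -0.12 and -0.12 in controls. Treated mouse 1 lay below all controls by this list mean. Among the 8 members it did so for Pf4 alone, against 37.6% of all genes, and it lay above all controls for F2rl2, Cd9 and Vwf. The erythroid factor Klf1 had 5.97, 7.74 and 7.66 in treated mice, against 6.27, 6.18 and 6.66 in controls, and Epor, the erythropoietin receptor, differed by 0.28. Gata1, shared by erythroid cells and megakaryocytes, had 6.27, 7.34 and 7.18 in treated mice, against 6.48, 6.40 and 6.34 in controls. Its difference was 0.52 (SE 0.27).

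The monocyte and macrophage list had 9 of 10 means higher, against 44.7% of all genes. At an unadjusted p under 0.05 by limma 3 were higher, against 5.75%. Without control mouse 3 there were 7, against 4.48%, and without treated mouse 1 there were 5, against 10.3%. The median of the list was 0.58, or 0.96 without control mouse 3. Its mean was 0.15, 1.22 and 0.73 in treated mice, against -0.28, -0.18 and 0.46 in controls. Its genes Cd68, a lysosomal protein, and Csf1r, the receptor for macrophage colony-stimulating factor, differed by 0.90 and 0.36. Mast cell and basophil genes had 2 of 8 means higher, against 44.7% of all genes. Their list means were -0.26, 0.28 and 0.15 in treated mice, against 0.12, 0.16 and -0.28 in controls. Cpa3 and Mcpt8 differed by -0.36 and -0.89. At an unadjusted p under 0.05 by limma 1 gene was higher and 1 lower, against 5.75% and 4.45% of all genes. The higher one, picked out after its value was seen, was the histamine-making enzyme Hdc, at 2.02 (SE 0.42) with groups that did not overlap. B cell genes had 9 of 9 means lower, whereas 44.7% of all genes had higher means. At an unadjusted p under 0.05 by limma 2 were lower, against 4.45% of all genes. Without treated mouse 1, 7 were lower. The B cell list means were 0.01, -1.08 and -0.89 in treated mice, against 0.05, -0.23 and 0.18 in controls. T cell genes had 2 of 8 means higher, against 44.7% of all genes. Their list means were 0.12, -0.19 and -0.28 in treated mice, against 0.18, -0.0029 and -0.18 in controls. Cd3e and Cd3d differed by 0.07 and -0.13. Stem and progenitor genes had 2 of 10 means higher, against 44.7% of all genes. At an unadjusted p under 0.05 by limma 4, Cd34, Flt3, Mecom and Hoxa9, were lower, against 4.45% of all genes. The 4 were 0 without control mouse 1, 1 without treated mouse 1 or control mouse 3, and 2 without treated mouse 3. With a mouse left out, the share of all genes that were lower was not counted. The stem and progenitor list had means of -0.30, -0.16 and -0.40 in treated mice, against 0.12, -0.28 and 0.17 in controls. The part of any of these cells in the member differences was not tested.

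**Figure D5:**
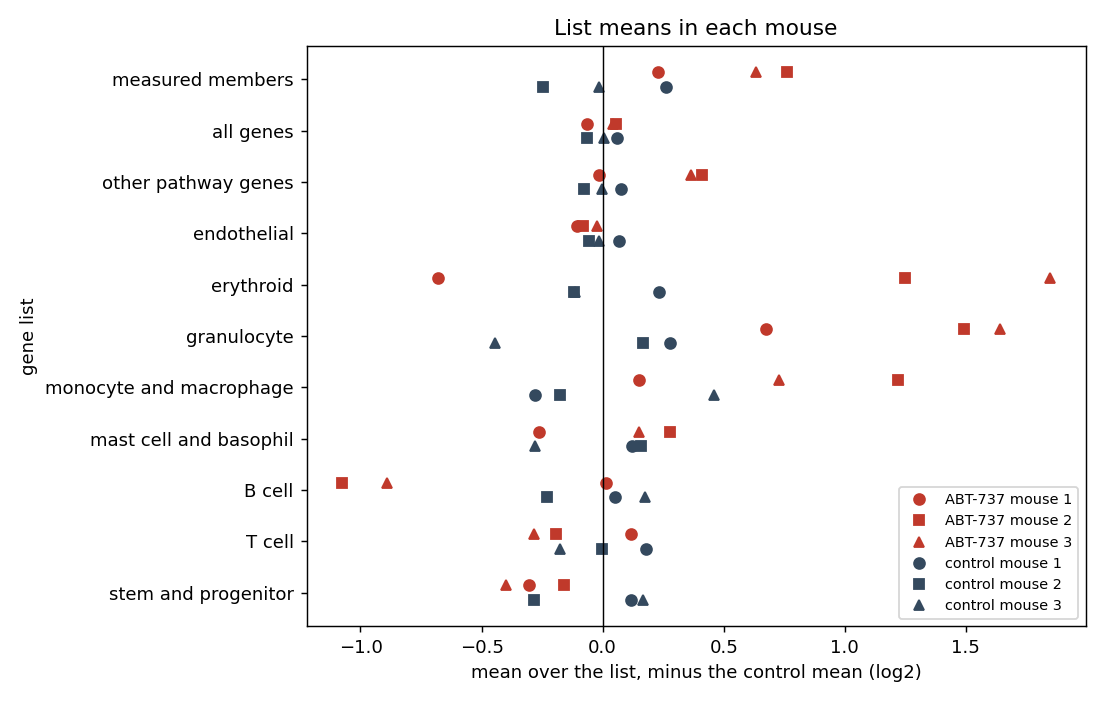
Mean over each gene list minus its control mean (x axis, log2) in each of 3 treated mice (red) and 3 controls (dark), for the 8 members, all genes, 78 other pathway genes and 8 marker lists (y axis). Treated mice 2 and 3 stand right of every control for the members, the other pathway genes and the erythroid, granulocyte and monocyte lists. They stand left of every control for the B cell list and, by a small margin, the T cell list.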

How the data were processed

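Exon arrays were hybridised with RNA of spleen cells sorted for Sca-1, 1 array for each of 6 mice, per the labels' protocols. The authors deposited 1 value per entry and array, on a log2 scale as read from the values. Build mm9 comes from the submitters' processing notes. How values were normalized, summarised or filtered is not given in the sources used here, and its effect on small differences is unknown. No background signal was used. The number of arrays limits the precision.

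Of 23332 entries, 14996 had 1 gene symbol, 1019 several and 7317 none. Only the first were used, keeping the highest-mean entry of each of 135 genes with more than 1, which left 14860 genes. Of the entries with 1 symbol, 14941 matched RefSeq (GRCm38.p6) by Entrez number.

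Groups follow the treatment labels, with mice numbered in accession order, and the labels name separate animals. The fit was limma 3.58.1 (lmFit, eBayes) in R 4.3.3, two-sided, for treated minus control, and p-values were adjusted by Benjamini-Hochberg over the 14860 genes, with 0.05 as the threshold. In a simulation of this comparison with 14860 genes, 88.0% of 50 genes changed by 1 were called. In it, 9 unchanged genes were called too. That simulation gave genes independent noise and planted 200 changed genes. The real comparison called 0 genes, with differences up to 2.98, so the 88.0% is not the power of this comparison.

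The members and lists were chosen with earlier results of these data known. Named were all members, every pathway gene with an unadjusted p under 0.05 or among the 2 smallest of its list, and the first 2 measured genes of each marker list. Others, among them Gp5, Gata1, the tetraspanins, F2r, F2rl3 and Itgav, were chosen after their values or those of a member were seen. Alternatives are in the closing section. Figures were drawn with matplotlib 3.10.9.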

Additional observations from a re-analysis of the deposited data

How the results depend on the processing

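No paired analysis was possible because the labels share no replicate numbers between the groups. Over all genes, the count past an adjusted p of 0.05 by limma was 0 (1516 at an unadjusted p under 0.05), and it was 16 when arrays were centred on their median, 14 without the dimmest 30% of genes and 2 with array weights. Leaving out 1 mouse gave 0 to 510, with 510 without treated mouse 1 and 1 without treated mouse 3. Over the same leave-outs, members higher at an unadjusted p under 0.05 numbered 2 to 4 (2 with all mice) and members with separate, higher groups 3 to 5 (3 with all mice). Their median difference ran from 0.23 to 0.64 (0.34 with all mice), and other pathway genes at an unadjusted p under 0.05 numbered 9 to 31 (19 with all mice). Over all genes, the share higher at that level ran from 3.07% to 10.3% (5.75% with all mice). The cause of these moves was not tested. Separate groups were found for 2 members, F2rl2 and Cd9 but not Vwf, under quantile normalization or centring. The difference of Itgb3, -0.20 with all mice, ran from -0.58 without treated mouse 1 to 0.085 without control mouse 1, and was 0.00333 without treated mouse 3. The other 7 members were higher in treated mice under every alternative run: quantile normalization, centring, the filter, trended or robust variance, array weights, the mean of entries, and each left-out mouse. F2rl2 ran from 1.42 to 2.03 and Cd9 from 1.04 to 1.59. With 3 mice a group, the intervals of Ppbp, Gp9, Pf4 and Itgb3 leave room for differences of up to 0.68 or more.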
